A study of Mus musculus with 6 samples.

Results

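The 10 genes described here encode contractile and actin-binding proteins that are commonly used as readouts of TGF-beta stimulation: Acta2, Tagln, Tagln2, Tpm1, Tpm2, Tpm4, Myl9, Cnn1, Cnn2 and Cnn3. They were taken by symbol, and all 10 were found among the 25302 rows of the gene table. RNA was sequenced from biliary epithelial cells, which line the bile ducts, isolated from mouse liver. The Control group (n = 3) carried the genotype Sox9fl/fl, and the Sox9cKO group (n = 3) carried Sox9fl/fl:AlbCre+/-, so the floxed Sox9 alleles were present in both; Sox9 encodes a transcription factor of bile duct cells. AlbCre is a Cre recombinase driven by the albumin promoter, which is active in liver progenitors and hepatocytes and therefore is not specific to bile duct cells. The labels used here gave no strain, age or sex, and did not say whether each sample came from 1 animal, so p-values measure the spread between these samples.

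Actin filaments are built from actin monomers and carry tropomyosins, which lie along the filament and set which other proteins can bind it. In smooth muscle and in myofibroblasts, TGF-beta signalling through Smad proteins, together with serum response factor (SRF) and its myocardin-related cofactors, raises alpha smooth muscle actin, transgelin, calponin 1 and the myosin light chain Myl9. In the liver the classical source of these products is the activated stellate cell or portal fibroblast, while epithelial cells rely on non-muscle relatives such as Tagln2, Tpm4 and Cnn3.

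The 250 bases before the annotated gene start were available from RefSeq (GRCm38.p6) for 9 of the 10 genes, all but Tagln. Those of Acta2, Tpm1, Myl9, Cnn1 and Cnn2 are shown because each holds a match to a motif of SRF, Smad, TEAD or SOX proteins and together they cover every motif found. Capitals mark every match to the motifs searched. They lie at chr19:34255374-34255623 (minus strand), chr9:67049214-67049463 (minus strand), chr2:156775214-156775463 (plus strand), chr9:22099003-22099252 (plus strand) and chr10:79988350-79988599 (plus strand), in that order, each written 5′ to 3′ on the strand of the gene.
Acta2: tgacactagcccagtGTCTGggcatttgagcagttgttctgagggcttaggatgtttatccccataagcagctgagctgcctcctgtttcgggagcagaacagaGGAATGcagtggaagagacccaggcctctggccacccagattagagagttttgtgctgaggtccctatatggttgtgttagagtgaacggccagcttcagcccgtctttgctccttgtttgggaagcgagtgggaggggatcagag
Tpm1: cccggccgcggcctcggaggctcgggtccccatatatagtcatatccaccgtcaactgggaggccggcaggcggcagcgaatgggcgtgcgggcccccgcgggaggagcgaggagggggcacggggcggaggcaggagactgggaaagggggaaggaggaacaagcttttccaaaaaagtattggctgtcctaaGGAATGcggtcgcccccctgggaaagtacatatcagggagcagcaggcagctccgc
Myl9: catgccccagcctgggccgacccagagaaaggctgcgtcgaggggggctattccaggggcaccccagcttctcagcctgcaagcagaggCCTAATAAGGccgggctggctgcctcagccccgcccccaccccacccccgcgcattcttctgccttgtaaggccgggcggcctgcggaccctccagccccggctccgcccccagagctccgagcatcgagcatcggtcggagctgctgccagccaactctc
Cnn1: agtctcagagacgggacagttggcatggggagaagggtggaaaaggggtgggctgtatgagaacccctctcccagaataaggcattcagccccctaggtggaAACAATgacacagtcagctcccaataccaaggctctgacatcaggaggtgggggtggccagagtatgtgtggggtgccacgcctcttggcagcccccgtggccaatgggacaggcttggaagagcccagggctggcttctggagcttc
Cnn2: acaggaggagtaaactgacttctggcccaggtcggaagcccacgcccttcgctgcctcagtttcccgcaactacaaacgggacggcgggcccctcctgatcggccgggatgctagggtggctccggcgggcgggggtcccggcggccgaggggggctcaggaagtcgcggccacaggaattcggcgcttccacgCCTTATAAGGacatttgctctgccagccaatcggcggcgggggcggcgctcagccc

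The motifs searched on both strands were the CArG box recognised by SRF, the Smad core CAGAC, the TEAD core GGAATG, the SOX core AACAAT and the TATA box core TATAAA, and no 2 matches overlapped. For the CArG box only the exact form CCWWWWWWGG counted, where W is A or T. Near-matches that differ by a base, such as CCCTATATGG and CCTTGTTTGG in the Acta2 window, were neither counted nor put in capitals. A CArG box was found in 2 of the 9 windows, those of Myl9 (CCTAATAAGG, starting 161 bases before the gene start) and Cnn2 (CCTTATAAGG, 56 bases before). Among all 32851 windows of that length in the table, 1.47% held one. The TEAD core lay in the windows of Acta2, Tagln2 and Tpm1 (3 of 9, against 12.6% of all windows), in Tpm1 at 56 bases before the start. The Smad core lay in those of Acta2 and Tagln2 (2 of 9, against 42.2%) and the SOX core in that of Cnn1 (1 of 9, against 9.42%). None of the 9 held TATAAA (12.4% of all windows). The windows also differed in base composition: G and C made up 53.6% of the Acta2 window and 59.2% of the Cnn1 window, but 78.8% of those of Tpm4 and Cnn3, against a median of 52.4% over all windows. These matches describe letters in a window and were not tested for binding.

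Values are given as normalized reads: the authors scaled the counts of each library by a single factor. Total counts ranged from 11883496 to 16191990 reads per library. Sox9 itself, the targeted gene, lay between 6043 and 6293 in the Control samples and between 3165 and 3363 in the Sox9cKO samples, so each library followed its label, and Sox9 transcript was still detected in Sox9cKO. Differences were tested with limma on log2(value + 1) over 17153 genes with a mean of at least 10, with Benjamini-Hochberg adjustment over all of them. A gene is called where its adjusted p is under 0.05, which held for 2.97% of the genes tested (2.03% higher and 0.939% lower in Sox9cKO). Same-numbered samples of the groups deviated together, so a second limma fit blocked on that number is given where it changes a call. It called 8.05% of the genes tested, 5.06% higher and 2.99% lower.

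Levels were compared between genes per kilobase of exon, using exon lengths from GENCODE release M21. Each length merged all annotated exons of a gene, whichever transcripts were made, so the order of genes depends on it. The 10 genes fell into a high set and a low set. In the Control samples Tagln2, a transgelin of non-muscle cells, was highest at 1986 ± 87.9 normalized reads per kb (SD, n = 3), above every Control value of the next gene. Tpm4 followed at 1376 ± 35.5, Tpm1 at 1263 ± 143 and Cnn3 at 630.6 ± 73.3. Tpm4 and Tpm1 overlapped in their Control values. Cnn2 was intermediate at 64.98, with a range from 55.73 to 81.12.

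The low set held the 4 products usually linked to smooth muscle, and Tpm2. In the Control samples Tagln reached 35.25 ± 7.03 normalized reads per kb (SD, n = 3), Myl9 30.33 ± 2.86, Tpm2 18.14 ± 5.33, Cnn1 14.14 ± 2.85 and Acta2 9.017, the last with a range from 4.197 to 11.87. Within this set Tagln and Myl9 overlapped, as did Tpm2 and Cnn1, and Cnn1 and Acta2. Over all 6 samples, the mean level per kb of Acta2 stood at percentile 14.2 of the tested genes and that of Tagln2 at percentile 99.2. The order changed at the top and bottom in the Sox9cKO samples, where Tpm1 (1951 ± 61.2) ranked second and overlapped with Tagln2 (1959 ± 324), and Cnn1 (5.569 ± 2.43) ranked last and overlapped with Acta2 (9.434 ± 5.33). These orders are descriptions and were not tested.

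**Figure D1:**
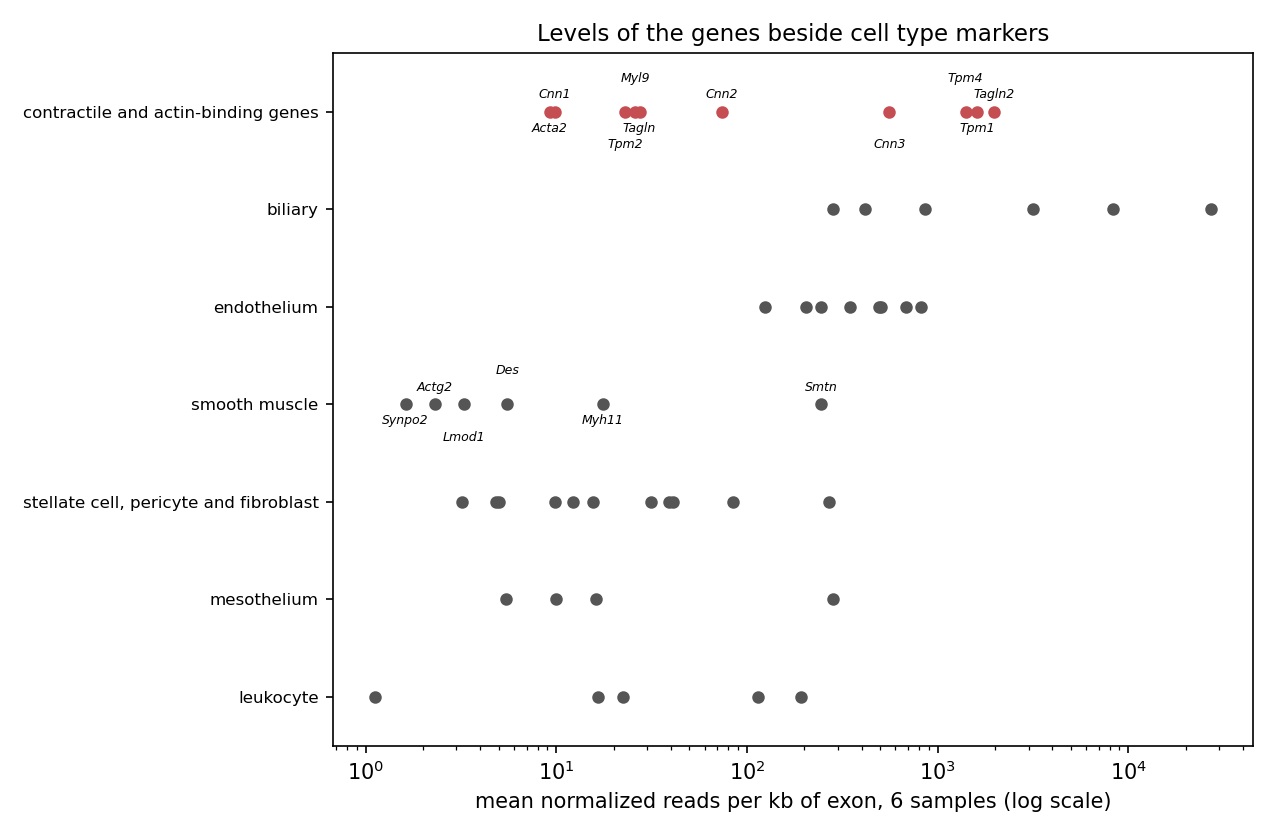
Each point is 1 gene, placed by its mean normalized reads per kb of exon over the 6 samples on a log scale, with the 10 genes in the top row and markers of other cell types below. Tagln2, Tpm1, Tpm4 and Cnn3 lie among the biliary markers, while Acta2, Cnn1, Tpm2, Myl9, Tagln and Cnn2 lie below all 6 of them.

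The first comparison asked which of the 10 genes differed between Control and Sox9cKO. Tpm1 alone was called and was higher in Sox9cKO, 1 of 10 genes beside 2.97% of all genes in either direction and 2.03% higher. With the replicate block 2 of 10 were called, Tpm1 higher and Cnn1 lower, beside 8.05% of all genes. The direction was split evenly, with 5 genes higher and 5 lower and a median log2 fold change of -0.0024, against 0.036 over all genes tested. The groups did not overlap for 4 of the 10 genes (Tpm1 and Tpm2 higher, Tagln and Cnn1 lower), beside 24.2% of all genes tested. Before adjustment, limma gave p under 0.05 for 3 of the 10 (Tpm1, Tagln and Cnn1), beside 17.8% of all genes. The 10 genes thus had no common direction.

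Tpm1 encodes a tropomyosin made in muscle and non-muscle forms. Its normalized reads in replicates 1, 2 and 3, the order used throughout, were 7530, 7791 and 9248 for Control and 12799, 12201 and 12953 for Sox9cKO. Every Sox9cKO sample lay well above every Control sample, and the Sox9cKO samples were closer to each other than the Control samples were. The means were 8190 ± 926 and 12651 ± 397 (SD, n = 3), a 1.54-fold difference. On the log2 scale Tpm1 differed by 0.63 ± 0.12 (SE; limma, adjusted p 0.0390 without and 0.0168 with the replicate block), and all 3 same-numbered pairs were higher, by 0.77, 0.65 and 0.49. The size was stable between 0.57 and 0.72 over the 18 alternatives, but the call was not. Each of the 6 fits that left out 1 sample lost it (limma, adjusted p 0.0591 to 0.173), as did edgeR (adjusted p 0.0700; 2.86% of genes called). It was also lost without the intensity trend (limma, adjusted p 0.101) and with voom weights (limma, adjusted p 0.0579). Tpm1 was called in the other 9 alternatives, among them DESeq2 (7.08% of genes called) and edgeR with the replicate block (6.76%).

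Tpm2, the tropomyosin best known from smooth and slow skeletal muscle, was low. Its normalized reads were 36.1, 66.8 and 55.3 in Control and 104, 68.0 and 70.2 in Sox9cKO. The groups were separated by a narrow gap, since Control replicate 2 nearly reached Sox9cKO replicate 2. The log2 fold change of 0.62 had a 95% interval from -0.093 to 1.34 and was not called (limma, adjusted p 0.348). Tpm4, a short non-muscle tropomyosin, had 2949, 3105 and 3038 normalized reads in Control and 3828, 3295 and 2333 in Sox9cKO. The Control samples nearly coincided, and the Sox9cKO samples fell on both sides of them. Its log2 fold change was 0.027, with an interval from -0.40 to 0.46 (limma, adjusted p 0.962).

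Because Tpm1 and Tpm4 behaved differently, the make-up of the tropomyosin pool was compared, with the relative Tpm3 included. This comparison was chosen after those values were seen. The shares and the pool total are all built from the same Tpm1 values, so they are not separate results. Mean Tpm1 per kb was 1263 in Control and 1951 in Sox9cKO, and mean Tpm4 1376 and 1431. Tpm1 made up 36.6%, 35.2% and 41.9% of the pool per kb of exon in Control and 42.9%, 43.8% and 51.8% in Sox9cKO. Tpm4 made up 42.2%, 41.3% and 40.6% in Control and 37.8%, 34.8% and 27.5% in Sox9cKO. Per kb, the leading tropomyosin was thus Tpm4 in 2 of 3 Control samples and Tpm1 in every Sox9cKO sample. Which gene led depends on the merged exon lengths, 6485 bases for Tpm1 and 2203 for Tpm4. In normalized reads not divided by length, Tpm1 was above Tpm4 in every Control sample (7530, 7791 and 9248 against 2949, 3105 and 3038). The groups did not overlap for either share. Tpm3 kept 20.2% ± 2.99 and 19.8% ± 1.18 (SD, n = 3), and Tpm2 stayed under 1% in each sample. The pool itself was larger in Sox9cKO, at 4251 ± 373 against 3330 ± 135 normalized reads per kb. With 3 samples against 3 an exact permutation test cannot go below p = 0.1, which the Tpm1 share, the Tpm4 share and the pool size each reached (two-sided, 0.3 after adjustment over the 21 family values compared). Of those 21 values 7 reached it, the others being the Tagln share of transgelins, the Actb and Actg1 shares of actins and the light chain total (801 ± 101 in Control and 639.6 ± 34.7 in Sox9cKO per kb; SD, n = 3).

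Transgelin, the product of Tagln, is a calponin-related actin-bundling protein of smooth muscle. Tagln had 58.0, 85.4 and 66.8 normalized reads in Control and 44.8, 39.7 and 31.7 in Sox9cKO. All Sox9cKO samples were lower, and the nearest values of the groups were those of the replicates numbered 1. The means were 70.1 ± 13.98 and 38.7 ± 6.59 (SD, n = 3). Its log2 fold change of -0.83 had a 95% interval from -1.44 to -0.23 but missed the threshold over all genes (limma, adjusted p 0.151 without and 0.0959 with the replicate block). Of the exon bases of Tagln, 1241 also belong to the antisense gene Gm48529 and 108 to Pcsk7 on the opposite strand. Whether the authors counted by strand is not given in the sources used here, so reads of Tagln and Gm48529 (53.2 ± 3.15 in Control and 42.4 ± 7.60 in Sox9cKO) may not be fully told apart.

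Tagln2, the non-muscle transgelin, had 4257, 3924 and 4222 normalized reads in Control and 4768, 4047 and 3420 in Sox9cKO. The Sox9cKO samples spread on both sides of the Control samples. Tagln2 had a log2 fold change of -0.032 with an interval from -0.36 to 0.30 (limma, adjusted p 0.940). Tagln2 made up 95.6% ± 1.44 of the transgelin pool per kb in Control and 94.7% ± 4.35 in Sox9cKO, and Tagln 1.71% ± 0.417 and 0.942% ± 0.0616 (SD, n = 3). The remainder was Tagln3, which reached 9.33% in Sox9cKO replicate 3.

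Calponins bind actin and restrain the myosin ATPase, and calponin 1 is the smooth muscle form. Cnn1 had 43.7, 29.7 and 42.6 normalized reads in Control and 18.9, 7.56 and 19.2 in Sox9cKO. Every Sox9cKO sample was lower than every Control sample, with Sox9cKO replicate 2 resting on 8 reads. The means were 38.7 ± 7.80 and 15.2 ± 6.65 (SD, n = 3), which makes it the gene with the largest fitted change of the 10. Limma gave Cnn1 a log2 fold change of -1.37 with a 95% interval from -2.36 to -0.38. It was not called without the block (limma, adjusted p 0.150) and was called with the replicate block (limma, adjusted p 0.0483), and its log2 difference was -1.17, -1.84 and -1.11 in the 3 same-numbered pairs. In the other 16 alternatives with a value it was not called (adjusted p up to 0.377).

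Cnn2, a calponin of non-muscle and blood cells, had 143, 200 and 137 normalized reads in Control and 226, 303 and 83.8 in Sox9cKO. Sox9cKO replicate 3 was the lowest of the 6 samples and Sox9cKO replicate 2 the highest, so the groups overlapped fully. Cnn2 had a log2 fold change of 0.18 with an interval from -0.88 to 1.25 (limma, adjusted p 0.880). In both groups Cnn2 was highest in replicate 2 and lowest in replicate 3. The summed level of the 8 endothelial markers followed the same order, at 14850, 47857 and 2112 for Control and 37073, 49338 and 8054 for Sox9cKO. All 8 endothelial markers were detected in each library, 8 of 8 had a higher mean in Sox9cKO, and 0 were called. The summed level was higher in Sox9cKO in each same-numbered pair. With the replicate block 0 of the 8 were called (limma, adjusted p 0.0793 for Ptprb to 0.172 for Pecam1). One fit left out Control replicate 3, the lowest Control sample, but kept Sox9cKO replicate 3. In that fit the limma log2 fold changes of all 8 were negative, from -0.46 for Clec4g to -0.043 for Tek, and 0 were called. The part of these markers in the values of Cnn2 was not tested.

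Cnn3, the acidic calponin common in non-muscle cells, had 1952, 2117 and 1676 normalized reads in Control and 1380, 1921 and 1147 in Sox9cKO. Each Sox9cKO sample was lower than the Control sample of the same number, but Sox9cKO replicate 2 lay within the Control range. Cnn3 had a log2 fold change of -0.40 with an interval from -0.87 to 0.076 (limma, adjusted p 0.364 without and 0.0892 with the replicate block). Cnn3 made up 88.9% ± 0.710 of the calponin pool per kb in Control and 85.2% ± 4.33 in Sox9cKO (SD, n = 3). Cnn2 made up 16.6% and 16.3% of it in Sox9cKO replicates 1 and 2, and 8.13% in replicate 3, against 8.10% to 10.3% in Control.

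Acta2 encodes alpha smooth muscle actin, the standard marker of myofibroblasts. Its normalized reads were 26.1, 24.1 and 9.22 in Control and 33.8, 11.3 and 16.98 in Sox9cKO. The groups overlapped throughout, and replicate 1 was the highest of each. These values rest on 8 to 34 reads, so that the 95% Poisson interval of Control replicate 3 ran from 3.98 to 18.2 normalized reads and that of Sox9cKO replicate 1 from 23.4 to 47.3. Such intervals cover counting error only. Acta2 had a log2 fold change of 0.051 with an interval from -1.23 to 1.33 (limma, adjusted p 0.9752), an interval that holds differences in either direction. Beside the cytoplasmic actins Actb and Actg1, Acta2 was a trace: it made up 0.0377% ± 0.0198 of their joint level per kb in Control and 0.0381% ± 0.0121 in Sox9cKO (SD, n = 3). Actin genes resemble each other in their coding sequence, so reads may be divided among them imprecisely.

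Myl9 encodes a regulatory light chain of myosin II, whose phosphorylation switches on contraction. It had 36.1, 31.6 and 38.0 normalized reads in Control and 38.8, 18.9 and 18.1 in Sox9cKO. Sox9cKO replicates 2 and 3 were below the Control samples, and Sox9cKO replicate 1 was above them. Myl9 had a log2 fold change of -0.55 with an interval from -1.38 to 0.29 (limma, adjusted p 0.487). Its close relatives Myl12a and Myl12b supplied most of the regulatory light chain level per kb, and Myl9 3.80% ± 0.150 of it in Control and 3.36% ± 1.38 in Sox9cKO (SD, n = 3).

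**Figure D2:**
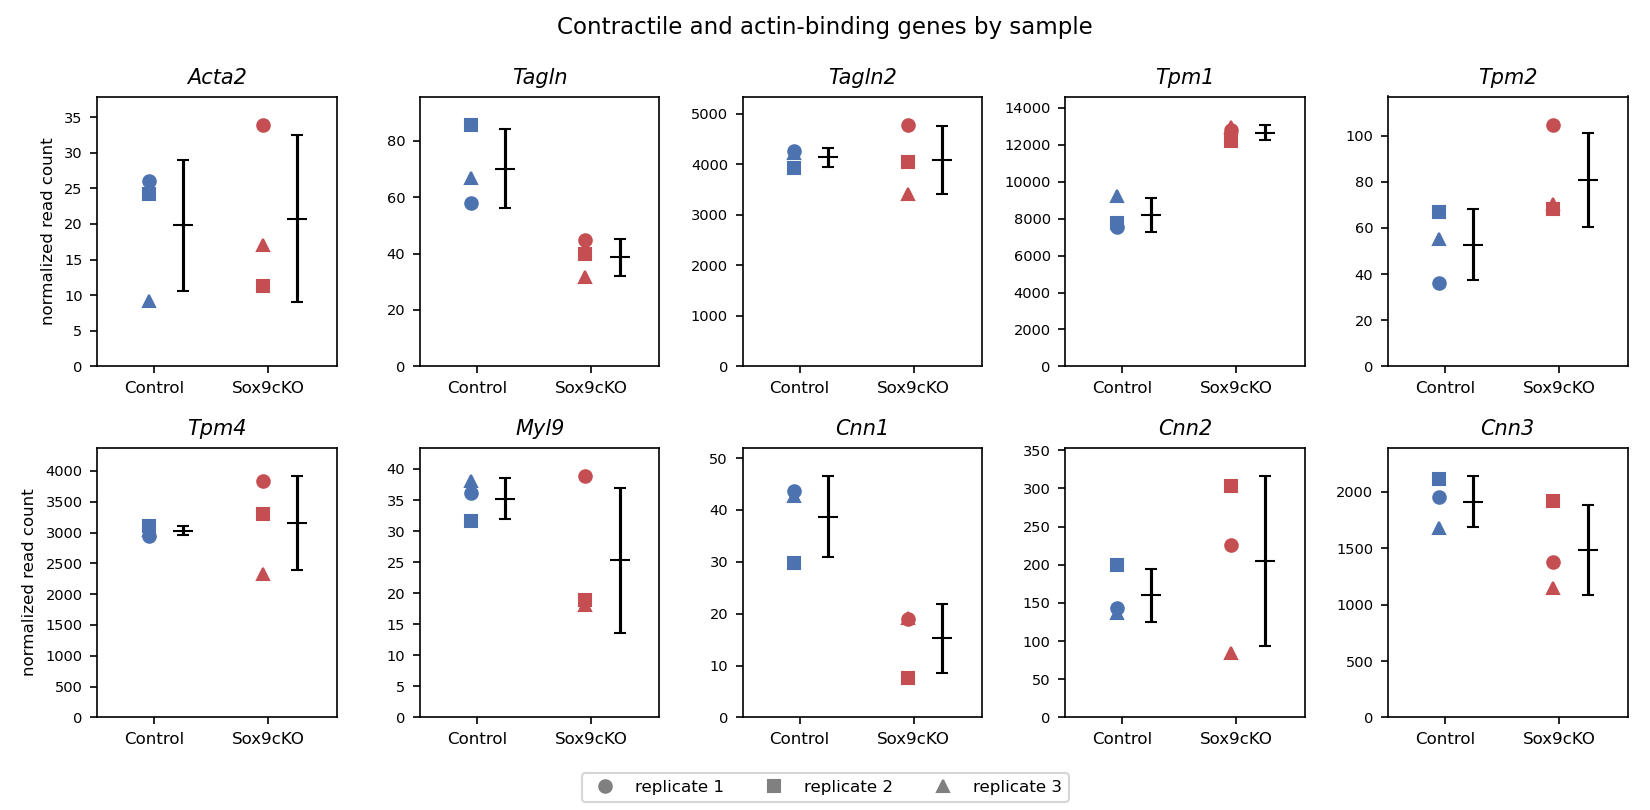
Normalized read count (linear axis from 0) of each gene by group, with 1 marker shape for each replicate number and the mean with its SD (n = 3) to the right of the points. Tpm1 is higher and Tagln and Cnn1 are lower in all Sox9cKO samples, while the Sox9cKO samples of Tagln2, Tpm4 and Cnn2 spread to both sides of the Control samples.

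**Figure D3:**
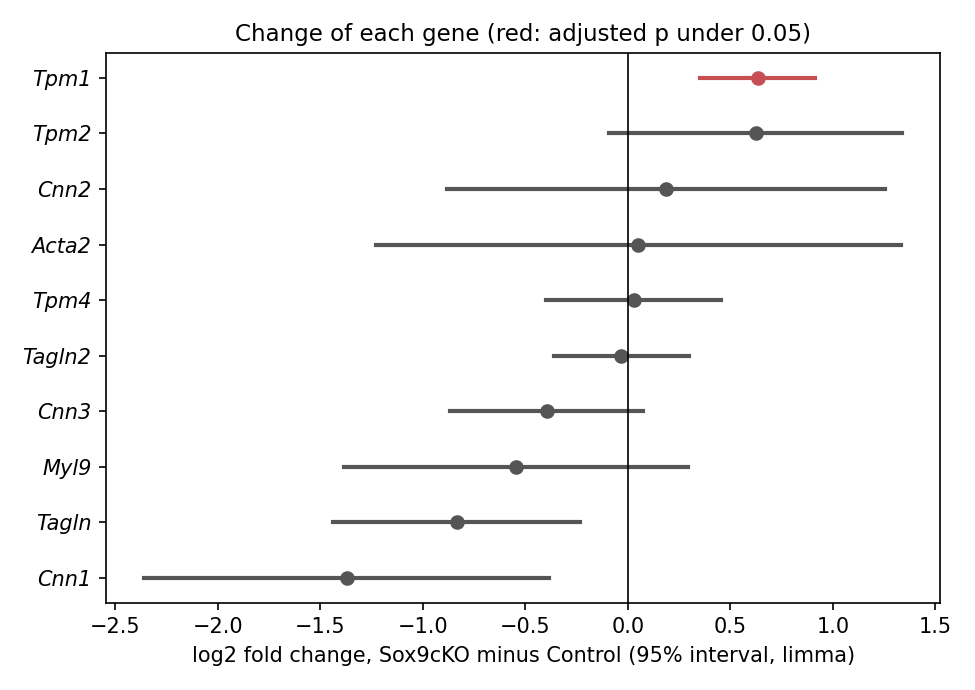
Log2 fold change of each gene (Sox9cKO minus Control) with its 95% interval from limma, sorted by size, with the called gene in red. The intervals of Tpm1, Tagln and Cnn1 leave out 0 before adjustment over all genes, and only that of Tpm1 belongs to a called gene.

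**Figure D4:**
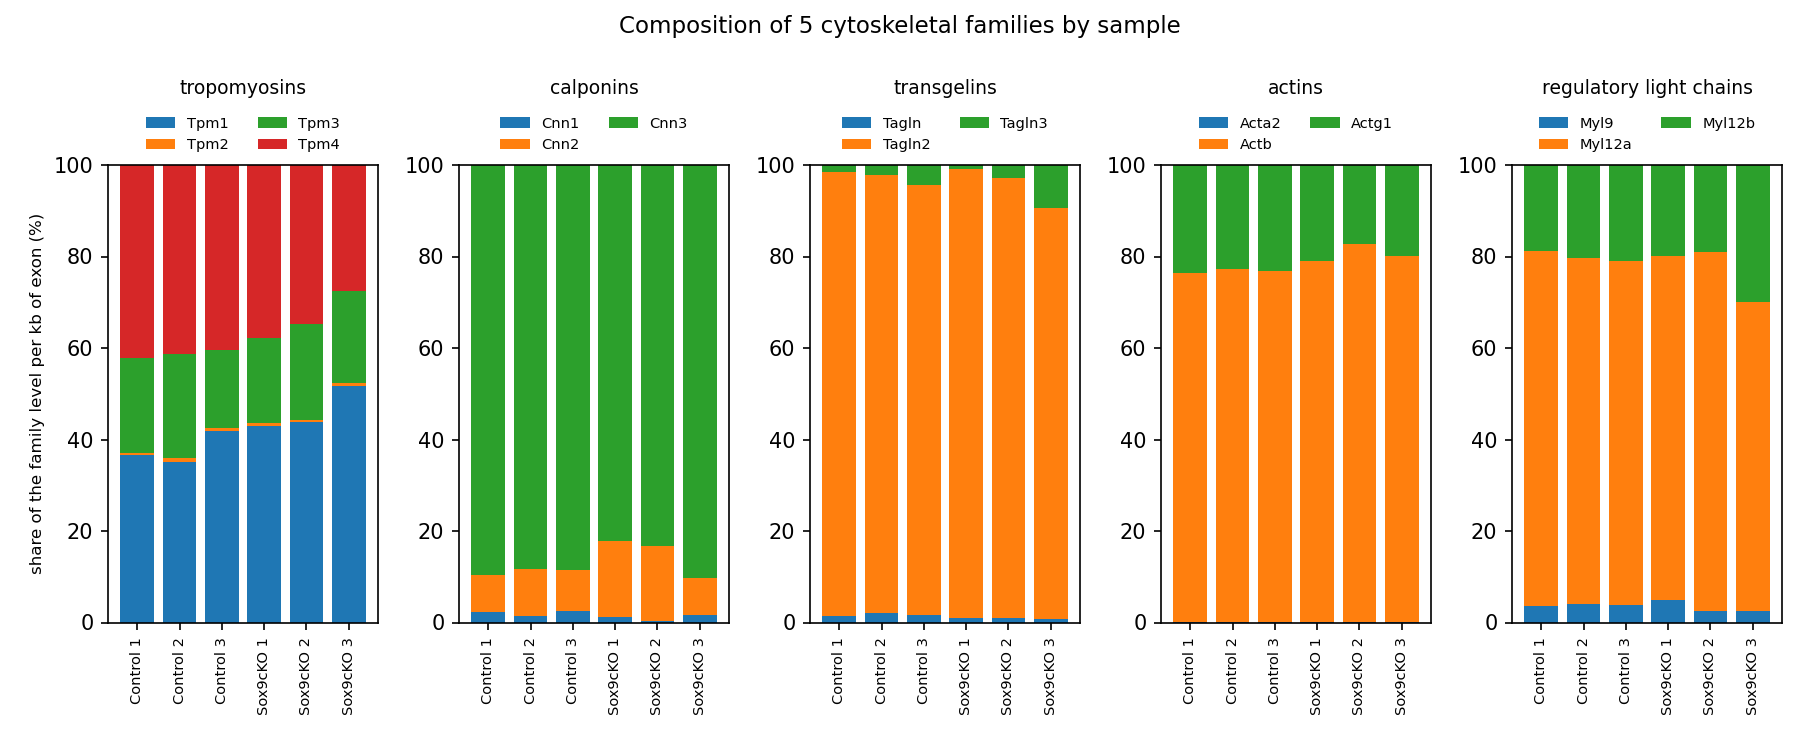
Share of each family's summed level per kb of exon (%) taken by each gene in each of the 6 samples. Tpm1 takes 35.2% to 41.9% in Control and 42.9% to 51.8% in Sox9cKO, the Tpm4 share is smaller in every Sox9cKO sample, and Acta2, Tagln, Myl9 and Cnn1 are thin slices throughout.

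The spread among the Sox9cKO samples was itself uneven. Sox9cKO replicate 1 had the highest Sox9cKO value of Acta2, Tagln, Tagln2, Tpm2, Tpm4 and Myl9. The same library had the highest value of Col1a1, a collagen of fibroblasts, at 759 normalized reads against 76.0 to 249 in the other 5 samples. The other stellate cell, pericyte and fibroblast markers did not all follow in that library. Over all 6 samples Col1a2, Col3a1, Lum, Pdgfra and Thy1 were also highest there, and Lrat (10.9) and Rgs5 (636) were lowest there. Dcn and Pdgfrb were highest there among the Sox9cKO samples but not over all 6. Reln was neither highest nor lowest there in either set. Across the 11 markers of stellate cells, pericytes and fibroblasts, 10 were tested and 0 were called, and 5 were higher and 5 lower in Sox9cKO. Their summed level ran from 3463 to 4197 in Control and from 4204 to 5918 in Sox9cKO, mostly from Reln and Rgs5, and of these markers Thy1 was at 0 in 1 Control sample. Of the 6 smooth muscle markers 5 were tested and 0 were called. Their summed level ran from 859 to 1628 in Control and from 1083 to 1835 in Sox9cKO, mostly from Smtn. Desmin (Des) had 11.5 to 30.6 normalized reads over all samples, and Actg2 had 3.46 to 7.57 in Control and a single read in each Sox9cKO sample. The part of these cell types in the values of the low set was not tested, and fewer cells of a type and less RNA per cell cannot be told apart in bulk samples.

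Biliary markers, set beside the labelled cell type, were all detected in every library: Epcam lay between 5501 and 8249 normalized reads and Krt19 between 11480 and 26648. Of these 6 markers, Krt7 was called (log2 fold change 0.997, limma, adjusted p 0.0408), and 3 were called with the replicate block. Of the 4 mesothelial markers Msln was called (2.01, adjusted p 0.0159) and Upk3b and Lrrn4 had negative fold changes. Of the 5 leukocyte markers tested Csf1r was called (0.92, adjusted p 0.0142) and the other 4 had negative fold changes. Of the 6 hepatocyte markers 0 were called, with 5 higher and 1 lower in Sox9cKO. By mean level per kb over all samples, Alb stood at percentile 99.9 of the tested genes and Ttr at 98.0. Apoa1 stood at 69.2, Cyp2e1 at 39.7, Ass1 at 32.6 and Cps1 at 21.1. The source of these transcripts was not tested.

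The second comparison placed the 10 genes beside other parts of the contractile machinery, from a list of 48 actins, myosins, actin-binding proteins and regulators of the cytoskeleton. Of these 47 were in the table, 45 were tested and 1 was called, which is 2.22% against 2.97% of all genes. Their median log2 fold change was -0.054, with 21 higher and 24 lower. The called gene was Cald1, caldesmon, which binds actin and tropomyosin and blocks myosin from the filament. Cald1 had 2172, 2255 and 1834 normalized reads in Control and 5197, 7624 and 5339 in Sox9cKO. The groups lay far apart, with Sox9cKO replicate 2 the highest. Cald1 differed by 1.52 ± 0.17 (SE) on the log2 scale (limma, adjusted p 0.00659), and it was called in all 18 alternatives, at 1.34 to 1.62.

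With the replicate block 7 of these relatives were called, 4 higher and 3 lower, or 7 of 45 beside 8.05% of all genes. Besides Cald1 they were Flnc (log2 fold change 1.22), Fhl2 (1.46), Actn1 (0.71), Csrp2 (-0.74), Rhob (-0.78) and Tmod1 (-1.04), which were named after their values were seen. Flnc is a muscle filamin, Fhl2 a LIM protein that binds SRF, Actn1 a non-muscle alpha-actinin, Csrp2 a LIM protein of smooth muscle, Rhob a small GTPase and Tmod1 a cap of the slow-growing filament end. Without the block their limma adjusted p-values lay between 0.0614 and 0.195. The abundant non-muscle myosin Myh9 had a log2 fold change of 0.32 (adjusted p 0.327) and the main cytoplasmic actin Actb one of -0.026 (adjusted p 0.968).

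**Figure D5:**
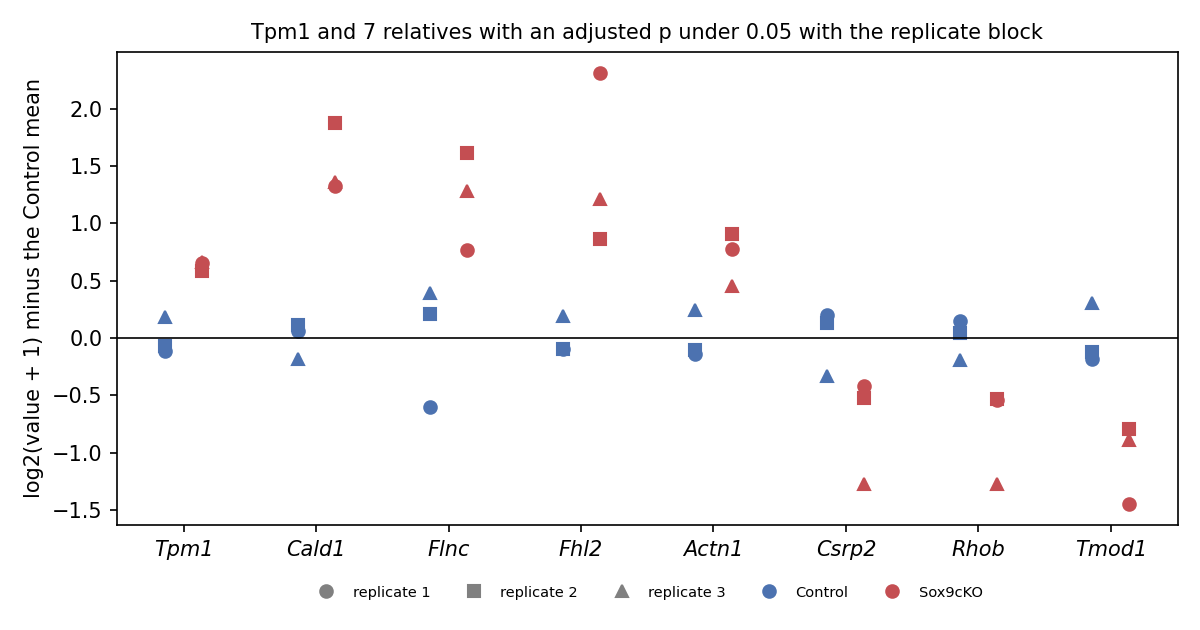
Log2(value + 1) of Tpm1 and of 7 relatives in each sample, minus the mean of the 3 Control samples of that gene. The Sox9cKO points of Tpm1, Cald1, Flnc, Fhl2 and Actn1 lie above all Control points of the same gene, those of Csrp2, Rhob and Tmod1 lie below, and those of Tpm1 are the most tightly grouped.

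Factors linked to SRF, TEAD and YAP were looked at next, and their action on the contractile and actin-binding genes was not tested. Of 13 listed SRF, myocardin-related, ternary complex, TEAD and YAP factors, 12 were tested and 1 was called (8.33% against 2.97% of all genes). With the replicate block 2 were called, Tead4 and Elk3 (log2 fold change 0.95, limma, adjusted p 0.0289), and Elk3 followed the sample order of the endothelial markers. The gene called without the block was Tead4, a DNA-binding partner of YAP, with 218, 261 and 287 normalized reads in Control and 699, 683 and 830 in Sox9cKO. The groups were far apart, and Tead4 differed by 1.53 ± 0.16 (SE) on the log2 scale (limma, adjusted p 0.00475). It was called in all 18 alternatives, at 1.41 to 1.62. Srf had 3466, 2215 and 3582 normalized reads in Control and 2584, 1883 and 1595 in Sox9cKO, with overlapping groups and a log2 fold change of -0.61 (adjusted p 0.250). The cofactors Mrtfa and Mrtfb had log2 fold changes of 0.085 and 0.096 (adjusted p 0.804 and 0.809), and Myocd, the muscle cofactor, was at or under 5.66 normalized reads in every sample.

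Other TGF-beta response and pathway genes did not share the even split of the 10 genes. Of 27 listed, all 27 were tested and 6 were called, all higher, which is 22.2% against 2.97% of all genes. With the replicate block 9 were called, 8 higher and 1 lower, beside 8.05% of all genes. The 3 added by the block, named after their values were seen, were Smad3 and Pmepa1 (log2 fold change 0.74 each; limma, adjusted p 0.00939 and 0.0205) and Bambi, a decoy receptor that dampens TGF-beta signalling (-1.04, adjusted p 0.0140). The median log2 fold change of the list was 0.62. This list was drawn up with earlier results of these samples known, and some of its genes had already been described as higher, so its count is not independent evidence of a direction. The 4 with the smallest p-values were the latent TGF-beta binding protein gene Ltbp2, fibronectin (Fn1), the cell cycle inhibitor gene Cdkn2b and the receptor gene Tgfbr2. Cdkn2b had 10.9, 32.5 and 19.6 normalized reads in Control and 254, 212 and 165 in Sox9cKO, and it differed by 3.37 ± 0.39 (SE) on the log2 scale (limma, adjusted p 0.00687). Tgfbr2 lost its call without Control replicate 1 or 3 (limma, adjusted p 0.0580 and 0.0520). Tgfb1i1, which encodes a TGF-beta-inducible partner of focal adhesions in smooth muscle, had a log2 fold change of 0.012 (adjusted p 0.989), and Tgfbi one of -0.11 (adjusted p 0.919).

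Across the 6 samples, few of the 10 genes moved together. Tagln2 and Tpm4 had a Pearson correlation of 0.90 on the log2 scale and Tpm4 and Cnn2 one of 0.85. Tagln and Tpm1, whose groups did not overlap, had one of -0.86. Acta2 had no correlation above 0.38 with any other of the 10, and the correlation of Acta2 with Tagln was 0.087. Among 9940 tested genes with a mean of at least 100, the 3 whose values most resembled those of Acta2 were Cog5, Tada2b and Galk1 (0.98, 0.98 and 0.98), and those most like Tagln were Dennd2c, Ppnr and Zfhx3 (0.97, 0.96 and 0.96). With 6 points from the same libraries and so many candidates, such values only describe these samples.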

How the data were processed

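RNA of 3 Control and 3 Sox9cKO samples was sequenced from rRNA-depleted, stranded libraries with molecular identifiers, per the labels' protocols. The authors deposited a signal per gene, namely read counts divided by 1 factor per sample, as the values show: each was a whole multiple of a step (100% within 0.001 reads). DESeq2 1.36.0 and GRCm39 are named in the submitters' processing notes. The aligner, the counter and the use of strand and identifiers are not given in the sources used here. Every column was matched by the number in the sample titles. The lowest total of any row was 10 reads.

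The main test was limma 3.58.1 in R 4.3.3 with an intensity trend, on log2(value + 1) of genes with a mean of at least 10, two-sided. The pseudocount of 1 understates changes of low genes. Same-numbered samples deviated together across genes (correlations 0.207, 0.472 and 0.542), so the replicate numbers given in the titles were used as a block. The titles state no pairing, so the block rests on these correlations in the same values, which were weakest for replicate 1. Alternatives, with edgeR 4.0.16 and DESeq2 1.42.0 on recovered reads among them, are given at the end. The scripts were tested on simulated data.

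The members and gene lists were chosen with earlier results of these data known. Named genes were the 10 members, Sox9, at most 4 called genes per list and direction by p, and the 3 genes most like Acta2 and Tagln. Others were named after their values were seen. Exon lengths, promoters and overlaps came from GRCm38 annotation, matched by symbol (promoters) or Ensembl identifier.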

Additional observations from a re-analysis of the deposited data

How the results depend on the processing

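Results were recomputed with the replicate block, other pseudocounts (0.1 or 5), TMM or quantile scaling, no filter on low genes or a stricter one (mean of 50), no trend, edgeR with and without that block, DESeq2, voom weights, and without each sample in turn. The 510 genes called became 1381 with the replicate block in limma, 1160 with it in edgeR and 1214 with DESeq2, each including all 510, and 199 to 387 when 1 sample was left out. Of the 10 genes, 1 was called, against 2 with the replicate block in limma (Tpm1 and Cnn1) and 0 without the trend, with edgeR, with voom weights and in each fit without 1 sample (0 to 0). In those fits with 0, 3 or 4 of the 10 genes had an unadjusted p under 0.05, beside 2229 to 3075 of all 17153 genes tested. The relatives called rose from 1 to 7 with the replicate block in limma, 6 with it in edgeR and 6 with DESeq2, and stayed at 1 in each fit without 1 sample. Signs changed for 4 genes near 0: Acta2 (edgeR with replicate block -0.013, voom weights -0.054, and -0.40 to 0.39 without 1 sample), Tpm4 (quantile normalization -0.052, edgeR with replicate block -0.016, voom weights -0.017, and -0.13 to 0.23), Cnn2 (-0.19 to 0.73) and Tagln2 (-0.15 to 0.088). The other 6 genes kept their direction in every alternative that gave a value, and Acta2, Myl9 and Cnn1 had none at a minimum mean of 50. The whole 300-base window added 1 Smad core, in Cnn1. In each case the cause was not tested. Acta2 rests on 8 to 34 reads per library and Cnn1 on 8 to 52.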
